A study of Mus musculus with 6 samples.

Results

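The 10 genes described here are the contractile genes usually listed for smooth muscle: Acta2, Actg2, Myh11, Myl9, Tpm1, Tpm2, Cald1, Cnn1, Tagln and Pdlim3, out of 55416 genes in the count tables. They were selected on their counts and CPM in these same libraries and between the genotypes, so their levels and their differences between genotypes are given as a description. The libraries were made from oligodendrocyte precursor cells, the dividing progenitors of myelin-forming cells, taken from mouse cortex at postnatal day 11. In all 6 samples the mice carried Pdgfra-Cre, in which the Pdgfra promoter drives the recombinase, and RosaEYFP, a fluorescent reporter. The 3 control samples were Ift88 fl/wt, with 1 floxed and 1 wild-type copy of a gene needed to build the primary cilium, and the 3 cKO samples were Ift88 fl/fl. Each sample pooled the cortices of 4 to 6 mice, so the spread between samples is a spread between pools, and the controls carry the Cre and 1 floxed copy too.

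Smooth muscle shortens when filaments of myosin pull on thin filaments of actin. The thin filaments carry tropomyosin along their length, and caldesmon and calponin bind to them and restrain the myosin, whose activity is switched on by phosphorylation of a regulatory light chain. In brain these genes are best known from the muscle cells and pericytes that wrap blood vessels, while several of them, the tropomyosins and caldesmon above all, are also made at lower levels by many cells that do not contract. Many of the genes are controlled by serum response factor, which binds the CArG box in their promoters together with myocardin in muscle or with related factors in other cells.

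Depth set what could be seen in each library. The 5 deeper libraries held 11773548 to 13909236 counts and 14047 to 16252 genes with a count, while cKO replicate 2 held 568509 counts in 3651 genes. A gene with 0 counts could still have a level of up to 5.28 CPM (counts scaled to a fixed library total) in cKO replicate 2 and of 0.216 to 0.255 CPM in the others, taking 3 counts as the limit and allowing for counting error only. Copies that PCR makes of 1 molecule add to these counts, and neither the limits nor the intervals below cover that. The targeted gene, Ift88, had 143, 32 and 167 counts in the controls (in the order of the replicate numbers, as throughout) and 1, 0 and 305 among the cKO libraries, so its 3' tags did not separate the labels. Of 13 markers of oligodendrocyte precursors 3 reached 20 counts in every deeper library, and Sox10, Tnr, Pcdh15 and Gpr17 had none in any library. The 13 summed to 340, 487 and 234 CPM among the controls and 225, 7.04 and 222 CPM among the cKO libraries. In every library the sums of the neuron markers and of the fibroblast and leptomeningeal markers, given below, were higher. The lists hold unlike genes, so their sums do not measure shares of cells. Because cKO replicate 2 stands apart in depth and in make-up, values are given with and without it.

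The label of the list holds for only some of its genes. Of the 10 genes, 7 reached 20 counts in each of the deeper libraries, and Myh11, Tagln and Cnn1 did not. Myh11, the heavy chain of smooth muscle myosin, had 13 counts in control replicate 3 and 0 in the other 5 libraries. Tagln, which encodes the actin-binding protein transgelin and is among the most abundant transcripts of vascular smooth muscle, had 55 counts in cKO replicate 3 and 0 elsewhere. Its count is uncertain, for a reason given below. Cnn1, which encodes calponin 1, was low rather than missing, with 103 to 332 counts in the controls, 41 in cKO replicate 3 and 0 in cKO replicates 1 and 2. The list is therefore called the contractile genes below, and its leading members were Acta2, Tpm1, Actg2 and Tpm2. A count of 0 is not by itself proof of absence in these tables: Myl12b, a light chain gene used by most cells, also had 0 counts in all 6 libraries. Myl12b is listed under more than 1 gene identifier, each at 0. Myl12a, another light chain gene, is listed under 1 identifier and had 1, 1 and 3 counts among the controls and 16, 0 and 1 among the cKO libraries. Whether the double listing of Myl12b bears on its counts was not tested.

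**Figure D1:**
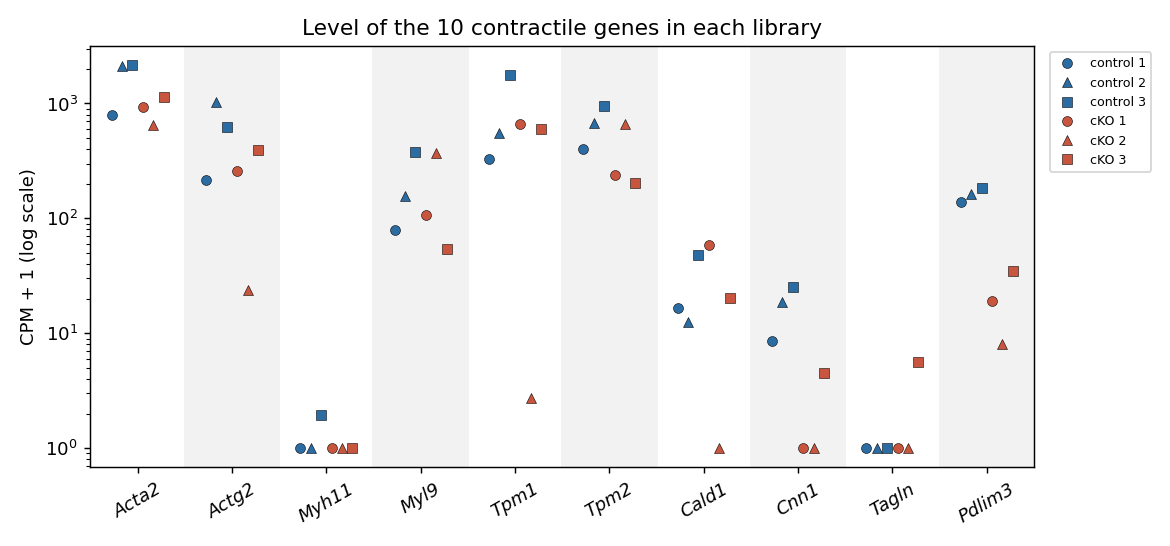
CPM + 1 on a log scale (vertical axis) of each of the 10 contractile genes (horizontal axis), with 1 point per library, controls in blue and cKO libraries in red, and the point shape giving the replicate. Acta2 lies between 647 and 2157 CPM in every library, Myh11 and Tagln lie at 0 in 5 of 6 libraries, and the cKO points of Pdlim3 and Cnn1 lie below all control points.

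Acta2 encodes smooth muscle alpha-actin, the main actin of contractile vessel walls, and was the most abundant of the 10 genes in 5 of the 6 libraries. It lies on chromosome 19 from 34218490 to 34232990 on the minus strand (GRCm39, as for all gene positions below; ENSMUSG00000035783). Its counts were 10742, 27051 and 29268 among the controls and 13025, 368 and 13281 among the cKO libraries. On the CPM scale this was 787, 2121 and 2157 against 936, 647 and 1128, so control replicates 2 and 3 stood above the rest and control replicate 1 fell among the cKO values. The group means were 1688 ± 781 and 904 ± 242 CPM (SD, n = 3 each), and 1032 CPM for the cKO group without replicate 2. In cKO replicate 2 the 368 counts gave an exact 95% counting interval of 583 to 717 CPM. In pooled samples of this kind, fewer cells that make a transcript and less of it per cell cannot be told apart.

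Actg2 encodes the gamma-actin of visceral smooth muscle and lies on chromosome 6 from 83489887 to 83513247. It had 2953, 13247 and 8385 counts among the controls and 3549, 13 and 4659 among the cKO libraries, or 216, 1038 and 618 against 255, 22.9 and 396 CPM. Control replicate 2 was the highest, 4.80 times control replicate 1 among the deeper libraries, and the groups overlapped. The 13 counts of cKO replicate 2 correspond to 12.2 to 39.1 CPM, so there Actg2 was far below the range of the other 5 libraries although Acta2 was not.

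Myosin was represented by its light chain. Myl9, on chromosome 2 from 156617340 to 156623578, encodes the regulatory light chain that is phosphorylated when smooth muscle contracts. Its counts of 1071, 2002 and 5129 among the controls and 1464, 212 and 625 among the cKO libraries gave 78.4, 157 and 378 against 105, 373 and 53.1 CPM. The shallow cKO replicate 2 was thus almost as high as control replicate 3, while the other cKO libraries lay near or below the lowest control. The cKO mean was 177 ± 172 CPM with that library and 79.2 CPM without it, against 204 ± 155 CPM in the controls (SD, n = 3).

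The tropomyosins, which lie along the actin filament and govern access of myosin, differed from each other in the shallow library. Tpm1, on chromosome 9 from 66929872 to 66956688, had 4464, 7088 and 24191 counts among the controls and 9279, 1 and 7074 among the cKO libraries. On the CPM scale this was 327, 556 and 1783 against 667, 1.76 and 601. Control replicate 3 was 2.67 times the next library, cKO replicate 1. Tpm2, on chromosome 4 from 43514711 to 43523765, had 5463, 8576 and 12988 counts among the controls and 3327, 378 and 2376 among the cKO libraries, or 400, 672 and 957 against 239, 665 and 202 CPM. In cKO replicates 1 and 3 Tpm2 lay below every control, at a mean of 221 CPM against 677 ± 279 CPM (SD, n = 3), and in cKO replicate 2 it lay within the control range. In that library Tpm1 was thus far below the range of the other 5 and Tpm2 was within it.

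Unlike the tropomyosins, the genes Cald1, Cnn1 and Tagln, whose proteins also bind the thin filament, were scarce. Cald1, which encodes caldesmon and lies on chromosome 6 from 34575435 to 34752408, had 212, 147 and 638 counts among the controls and 794, 0 and 227 among the cKO libraries. Its level was 15.5, 11.5 and 47.0 against 57.1, 0 and 19.3 CPM, with the highest value in a cKO library and overlapping groups. Cnn1, on chromosome 9 from 22010512 to 22020926, had 103, 228 and 332 counts among the controls and 0, 0 and 41 among the cKO libraries. This was 7.54, 17.9 and 24.5 against 0, 0 and 3.48 CPM, so every cKO library lay below every control. The 0 of cKO replicate 2 allows up to 5.28 CPM, which is close to the 7.54 CPM of control replicate 1. The 0 of cKO replicate 1 allows up to 0.216 CPM. Tagln, on chromosome 9 from 45840917 to 45847356, reached 4.67 CPM in cKO replicate 3. Its count is uncertain, because Pcsk7 and Gm48529 cover 23% of its last 500 exon bases and counting was done without strand. No other of the 10 genes shared any of its last 500 exon bases with another annotated gene.

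For Pdlim3 the groups did not overlap in spite of high control counts. It encodes an actinin-associated protein with PDZ and LIM domains that sits where actin filaments are anchored, and lies on chromosome 8 from 46338498 to 46372585. Its counts were 1864, 2078 and 2477 among the controls and 253, 4 and 395 among the cKO libraries. The level was 137, 163 and 183 CPM among the controls and 18.2, 7.04 and 33.5 CPM among the cKO libraries, with the controls close together and all cKO libraries far below them. The means were 161 ± 23.1 and 19.6 ± 13.3 CPM (SD, n = 3), a ratio of 8.20, and without cKO replicate 2 the ratio was 6.21. Unlike Acta2, Actg2, Tpm1 and Tpm2, Pdlim3 was as high in control replicate 1 as in the other controls within a factor of 1.34.

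Summed over the 10 genes, the level differed between the controls by more than between the group means. The sum was 1968, 4736 and 6148 CPM among the controls and 2278, 1717 and 2440 CPM among the cKO libraries. The means were 4284 ± 2126 CPM for the controls and 2145 ± 380 CPM for the cKO group (SD, n = 3), or 2359 CPM for the latter without replicate 2. Control replicate 1 lay among the cKO libraries, and control replicates 2 and 3 lay well above them. Of the 10 genes, 7 had their highest level in control replicate 3, with Actg2 highest in control replicate 2, Cald1 in cKO replicate 1 and Tagln in cKO replicate 3. No p-value was computed for this sum, because the genes were chosen with these values known.

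The sum was made up differently in cKO replicate 2, except for the share of Acta2. That gene supplied 35.1% to 46.2% of the contractile gene counts in the deeper libraries and 37.7% in cKO replicate 2. Tpm1 supplied 11.7% to 29.3% in the deeper libraries and 0.102% in cKO replicate 2. Myl9 went the other way, with 2.18% to 6.15% in the deeper libraries and 21.7% in cKO replicate 2, and Tpm2 with 8.27% to 20.3% and 38.7%. In that library 3 of the 10 genes, Acta2, Tpm2 and Myl9, had at least 20 counts and 4 had none.

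**Figure D2:**
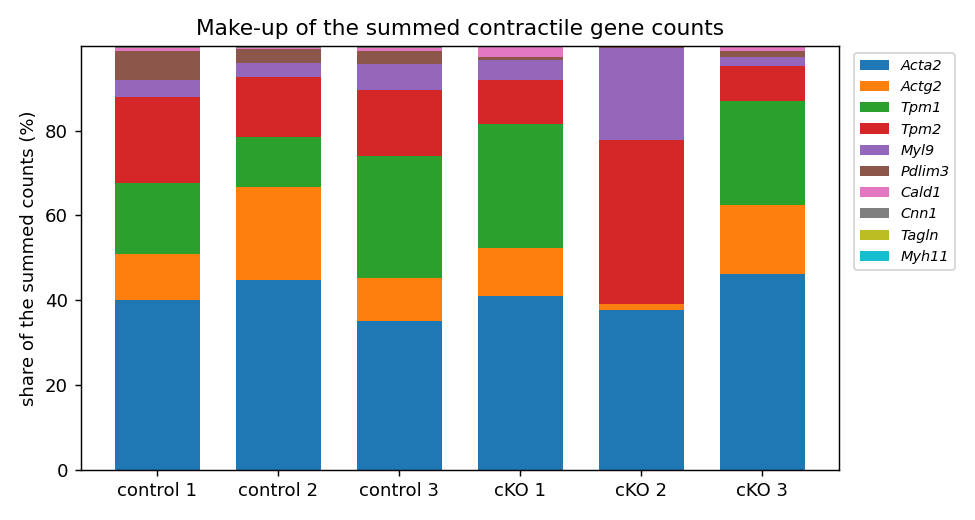
Share (%) of the summed counts of the 10 contractile genes (vertical axis) taken by each gene in each of the 6 libraries (horizontal axis), as stacked bars with 1 colour per gene. Acta2 takes 35.1% to 46.2% of the bar in all 6 libraries, while Tpm1 is nearly missing from cKO replicate 2, where Tpm2 and Myl9 fill its place.

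The comparison of the genotypes asks which transcripts depend on an intact cilium in these cells. No contractile gene passed it. Of the 10 genes 8 had enough counts to be tested, which left out Tagln and Myh11. By edgeR's quasi-likelihood test with all 6 libraries, 0 of these 8 had a Benjamini-Hochberg adjusted p under 0.05, where 0.0156% of the 12833 genes tested did, and 0 of the 8 had an unadjusted p under 0.05, as 2.83% of all genes tested did. Without cKO replicate 2 the count was again 0 of 8, where 0.00687% of 14562 genes passed, and 2 of the 8, Pdlim3 and Tpm2, had an unadjusted p under 0.05, as did 6.09% of all genes. DESeq2 also called 0 of the 8, with 0.48% of all genes called, and limma-voom called 0, with 0.109% of all genes called. The cKO values lay below every control for 2 of the 10 genes, Cnn1 and Pdlim3, where 11.1% of the genes tested did so, and for 3 without cKO replicate 2, when Tpm2 joined them and the share of all genes was 12.6%. None of the 10 lay above every control, as 1.33% of the genes tested did. Since the genes were picked with this contrast in view, nothing is read from these shares.

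The fitted differences were mostly below 0 and imprecise. For Pdlim3 the log2 fold change, cKO against control, was -3.03 (SE 1.85, edgeR adjusted p = 1) with all libraries and -2.63 (SE 0.43, edgeR adjusted p = 0.444) without cKO replicate 2. Its error was thus several times smaller once the shallow library was left out, with little movement of the estimate. Tpm2 went from -0.91 (SE 0.90, edgeR adjusted p = 1) to -1.58 (SE 0.38, edgeR adjusted p = 0.767). For Cnn1 the values were -3.69 (SE 2.43) and -3.26 (SE 2.28), for Acta2 -0.91 (SE 0.60) and -0.69 (SE 0.42), for Actg2 -1.48 (SE 0.99) and -0.93 (SE 0.59), and for Tpm1 -1.03 (SE 0.81) and -0.43 (SE 0.62). Myl9 depended most on the shallow library, at -0.24 (SE 1.40) with it and -1.31 (SE 0.66) without it. Cald1 was the only gene of the 8 with a positive estimate in both fits, 0.11 (SE 1.72) and 0.69 (SE 0.84). The sign was not stable for every gene: it turned under another scaling of the libraries for Myl9, Tpm2 and Acta2, and when single libraries were left out for Myl9 and Cald1. Pdlim3, Cnn1, Actg2 and Tpm1 were below 0 in all 13 alternatives, but their sizes were not stable. Pdlim3 ran from -3.64 to -1.89, the latter with upper-quartile scaling. Cnn1 ran from -10.48 without cKO replicate 3, the only cKO library with counts of it, to -3.05 without cKO replicate 1. Actg2 ran from -2.12 without cKO replicate 3 to -0.43 with upper-quartile scaling, and was at -0.88 without control replicate 2. Tpm1 ran from -2.03 with the replicate number as a block to -0.08 without control replicate 3, its highest library. The median over the 8 genes was -0.97 beside -0.44 for all genes tested, and -1.12 beside -0.06 without cKO replicate 2.

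**Figure D3:**
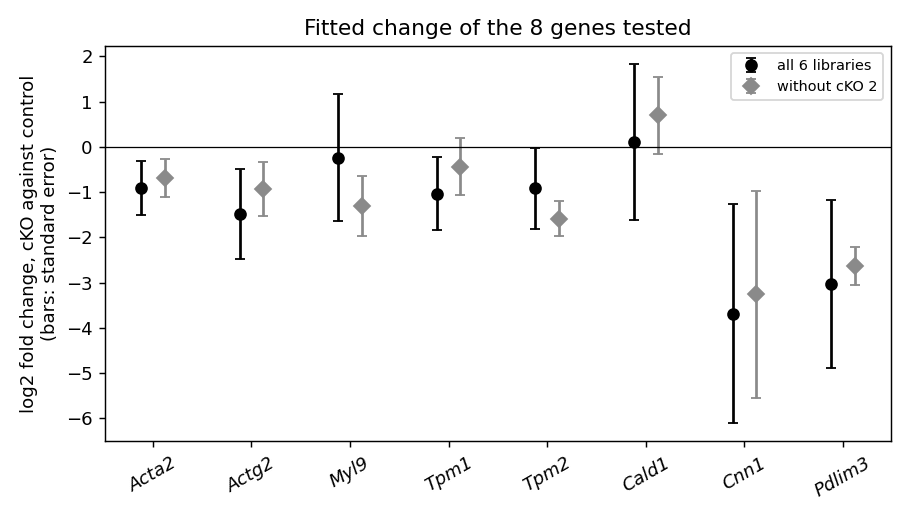
Log2 fold change, cKO against control (vertical axis), of the 8 contractile genes with enough counts (horizontal axis), from edgeR with all 6 libraries (black circles) and without cKO replicate 2 (grey diamonds). Bars are standard errors. Pdlim3 keeps its estimate, -3.03 and -2.63, while its bar shrinks, and Myl9 shifts from -0.24 to -1.31.

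The smooth muscle actins were compared with the other 4 genes of the actin family, which are nearly alike in protein and are told apart by the 3' tag. Actb, the beta-actin of all cells, was the most abundant, with 51.5% to 61.9% of the actin counts in each library. Acta1, the actin of skeletal muscle, had 1796, 2893 and 2143 CPM among the controls and 2345, 1729 and 2620 CPM among the cKO libraries, above Acta2 in 5 of the 6 libraries. Actc1, the actin of heart muscle, had 669, 849 and 1013 CPM against 760, 598 and 999 CPM. A 3' tag count does not grow with transcript length, so these levels can be set side by side without a length correction. Between the lowest and highest control Acta1 differed 1.61-fold and Actc1 1.51-fold, against 2.74-fold for Acta2, and for Acta1 the groups overlapped with means of 2277 ± 561 and 2231 ± 456 CPM (SD, n = 3). Most other genes of skeletal and heart muscle did not accompany them. Of the 27 genes of that list 15 had 0 counts in all 6 libraries, among them Myod1, Myog, Tnni1, Tnnt2 and Myh7. In every deeper library 5 of the 27 reached 20 counts, namely Acta1, Actc1, Ckm, Ttn and Myl3. Of the 5 genes of the list that were tested 0 passed by edgeR, with 0 at an unadjusted p under 0.05 and 0 called by DESeq2 or limma-voom. The shares over all genes were 0.0156% and 2.83% by edgeR, 0.48% by DESeq2 and 0.109% by limma-voom. Acta1, Actc1 and Ckm, the muscle creatine kinase, were the most abundant of the list, Ckm with 50.5, 34.4 and 6.12 CPM among the controls and 3.67, 0 and 5.01 CPM among the cKO libraries. Actg1, the gamma-actin of most cells, had only 0.706% to 1.20% of the actin counts in the deeper libraries. Of the 50-base words in its longest annotated transcript (GENCODE M21) 56.7% also occur in transcripts of other genes, among them Actg-ps1, and reads with more than 1 alignment were not counted, while the shares for Acta2, Acta1 and Actg2 were 0.352%, 2.22% and 0%. In the last 500 bases no such word was shared in any of these 4 transcripts, that of Actg1 included.

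**Figure D4:**
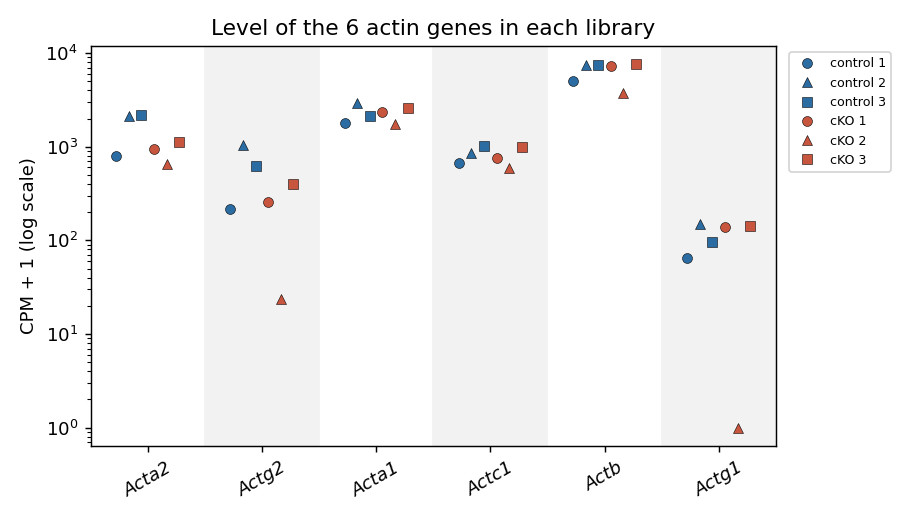
CPM + 1 on a log scale (vertical axis) of the 6 actin genes (horizontal axis), with 1 point per library, controls in blue and cKO libraries in red, and the point shape giving the replicate. Acta1 lies between 1729 and 2893 CPM in all libraries, and Acta2 spreads from 647 to 2157 CPM.

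Cnn3, the calponin of cells that are not muscle, had 373, 631 and 821 CPM among the controls and 320, 229 and 400 CPM among the cKO libraries, far above Cnn1. It was also the gene with the pattern most like both Acta2 and the summed contractile genes across the 6 libraries, with a root mean square difference of 0.20 and 0.19 on the centred log2(CPM + 1) scale. Among the contractile genes tested, and over all 6 libraries, the one nearest to Acta2 was Tpm2, at 0.80. Tpm1 was the farthest, at 2.63, and had 1 count (1.76 CPM) in the shallow cKO replicate 2. These distances were not computed without that library, so the order among the contractile genes is not given for the deeper libraries alone. The other genes nearest to Acta2 were Gm13529, Gm3695, Gm11942 and Gm18072, processed pseudogenes of which only Gm11942 exceeded 5 CPM. Nearest to the sum after Cnn3 came Gm3695, Gm13529, the ubiquitin ligase gene Rnf6 and Igfbp2, which encodes an insulin-like growth factor binding protein and had 1091, 1466 and 1646 CPM against 808, 505 and 856 CPM. Likeness over 6 libraries is a description, and the libraries share their depth and make-up.

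A list of 26 other smooth muscle contractile and attachment genes was followed in the same way. Of these, 17 were tested and 0 passed in either direction by the edgeR test, where 0.0156% of all genes tested did. By the same test 0 had an unadjusted p under 0.05, beside 2.83% of all genes. DESeq2 and limma-voom called 0 of them, beside 0.48% and 0.109% of all genes. Without cKO replicate 2, 0 of 20 passed by edgeR, beside 0.00687% of all genes. Their median log2 fold change was -1.27 with all libraries, beside -0.44 for all genes tested, and -0.70 beside -0.06 without cKO replicate 2. Kcnmb1, Pln and Mustn1 had no count in any library. The most abundant were Tagln2, the transgelin of many cell types, with 163, 460 and 415 CPM among the controls and 103, 1252 and 170 among the cKO libraries, Cnn2 with 84.6, 158 and 435 against 116, 1.76 and 169 CPM, and Vcl, the adhesion protein vinculin, with 80.3, 60.4 and 391 against 105, 0 and 108 CPM. Control replicate 3 was the highest library for Cnn2 and Vcl, as for 7 of the 10 contractile genes. The summed level of the 26 genes was 665, 1324 and 2523 CPM among the controls and 634, 1258 and 993 CPM among the cKO libraries.

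Of 19 general actomyosin genes 17 were tested and 0 passed by edgeR, with 1 at an unadjusted p under 0.05 and 0 called by DESeq2 or limma-voom. Over all genes these shares were 0.0156% and 2.83% by edgeR, 0.48% by DESeq2 and 0.109% by limma-voom. Actb had 5073, 7492 and 7518 CPM among the controls and 7215, 3704 and 7618 among the cKO libraries. Pfn1, the actin monomer binding protein profilin, had 1769, 3269 and 3737 against 1490, 3409 and 1738 CPM, and the filament severing gene Cfl1 had 1035, 2012 and 1553 against 1437, 938 and 1312 CPM. Both Pfn1 and Cfl1 were higher in control replicates 2 and 3 than in control replicate 1, as was Acta2. The median log2 fold change of this list was -0.13 beside -0.44 for all genes tested, and 0.05 beside -0.06 without cKO replicate 2.

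Regulators of the contractile genes gave 0 called of 15 tested by edgeR, from a list of 22, beside 0.0156% of all genes tested. By the same test 1 had an unadjusted p under 0.05, beside 2.83% of all genes. DESeq2 and limma-voom called 0 of them, beside 0.48% and 0.109% of all genes. Myocd, which encodes myocardin, the switch of the smooth muscle programme, had 0 counts in all 6 libraries, as did Foxf1. Srf had 622, 383 and 2637 counts among the controls and 1131, 2 and 1367 among the cKO libraries, and was highest in control replicate 3. The most abundant genes of the list were Fhl1, a LIM domain gene, with 315, 479 and 469 against 545, 3.52 and 616 CPM, and the matrix genes Ccn1 and Ccn2, which respond to serum response factor and to YAP. Ccn1 had 59.6, 326 and 579 CPM among the controls and 88.6, 1.76 and 95.7 CPM among the cKO libraries, and Ccn2 had 16.5, 97.4 and 295 against 161, 0 and 92.9 CPM. Ccn1 thus had the same 2 high control libraries as Acta2 and the contractile sum, with control replicate 1 among the cKO values.

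The promoter sequences show which contractile genes have a CArG box, or a near match to it, next to their start, and are given for that reason. The RefSeq promoter table (GRCm38.p6, 250 bases before to 50 after each start) holds 8 promoters of 7 of the 10 genes, with both starts of Cald1. A CArG box is CC, a core of 6 letters that are A or T, and GG, and reads the same on both strands. Allowing at most 1 G or C in the core, it occurred in the window of 3 of the 7 genes, Acta2, Myl9 and Pdlim3, beside 9.98% of all 32851 promoters in the table. The stricter form with a core of A and T alone, which the first form includes, occurred in Myl9 only, beside 1.63% of all promoters. The matches are in capitals, 5′ to 3′ on the strand of the gene, each with 15 bases on either side.
Acta2 (chr19:34255433-34255472, minus strand, match 84 bases before the start): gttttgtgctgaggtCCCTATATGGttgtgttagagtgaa
Acta2 (chr19:34255383-34255422, minus strand, match 34 bases before the start): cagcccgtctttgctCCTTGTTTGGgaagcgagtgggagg
Myl9 (chr2:156775288-156775327, plus strand, match 161 bases before the start): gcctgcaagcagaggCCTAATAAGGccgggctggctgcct
Myl9 (chr2:156775350-156775389, plus strand, match 99 bases before the start): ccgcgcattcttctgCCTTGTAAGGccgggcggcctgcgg
Pdlim3 (chr8:45885372-45885411, plus strand, match 100 bases before the start): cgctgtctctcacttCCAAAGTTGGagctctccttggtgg

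Only the Myl9 match at 161 bases, with a core of A and T alone, is a CArG box by the definition above. The other 4 matches have 1 G or C in the core. The 3 genes with a match had their highest level in control replicate 3, as did Tpm1, Tpm2 and Cnn1, which had no match. The genes with a match differed in control replicate 1, which lay among the cKO values for Acta2 and Myl9 and above them for Pdlim3. In the shallow cKO replicate 2 Acta2 and Myl9 were at 647 and 373 CPM while Pdlim3 was at 7.04 CPM. Tpm1, Tpm2, Cnn1 and Cald1 had no such match in this window. The same search found CArG boxes in the windows of Acta1, Actc1 and Actg1 as well. The motif CATTCC, which TEAD factors bind, was searched on both strands and occurred in the windows of Acta2, Cald1, Pdlim3 and Tpm1, beside 14.7% of all promoters. A match is a description of letters and does not show binding.

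Markers of the cells that usually make these genes are given beside the results. Of 18 markers of smooth muscle cells and pericytes 3 reached 20 counts in every deeper library, and Vtn, Higd1b, Art3 and Olfr558 had 0 in all 6. Their summed level was 176 to 427 CPM among the controls and 233 to 760 CPM among the cKO libraries, where the 760 CPM of cKO replicate 2 came from the 432 counts of Aoc3 alone. Rgs5, a pericyte gene, had 133, 1 and 3013 counts among the controls and 945, 0 and 499 among the cKO libraries. Its level was highest in control replicate 3, as were those of Mcam, Gper1 and, at 1 count, Anpep. Pdgfrb and Ednra were highest in cKO replicate 1, and Notch3 and Rgs4 in cKO replicate 3. Control replicate 2 had high levels of Acta2 and the highest of Actg2, and there the markers did not go together. It had 1 count of Rgs5, but was the highest library for Kcnj8, Ndufa4l2, Abcc9, Map3k7cl and Pcp4l1. The marker sum in that library was 178 CPM. Rgs4 had 96.5, 47.6 and 37.1 CPM among the controls and 92.2, 0 and 150 CPM among the cKO libraries, and Kcnj8, a potassium channel of mural cells, 13.6, 37.5 and 35.9 against 9.06, 0 and 24.1 CPM. Of the 10 markers tested 0 passed by edgeR, with 1 at an unadjusted p under 0.05 and 0 called by DESeq2 or limma-voom. Among all genes tested the shares were 0.0156% and 2.83% by edgeR, 0.48% by DESeq2 and 0.109% by limma-voom.

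Of 15 endothelial markers 3, Slc2a1, Cldn5 and Ocln, reached 20 counts in every deeper library. In all libraries 8 of the 15 were at 0, among them Cdh5, Flt1, Tie1 and Esam, and Pecam1 had 1 count in cKO replicate 1. Their sum was 214 to 353 CPM among the controls and 0 to 156 CPM among the cKO libraries. Slc2a1, a glucose transporter gene that other cells use too, led the list in the controls with 265, 346 and 185 CPM, and had 57.7, 0 and 62.8 CPM in cKO. Cldn5, a gene of endothelial tight junctions, was at 67.8 CPM in cKO replicate 3, above Slc2a1 there. Kdr had 32.7, 0 and 7.30 CPM among the controls and 0, 0 and 16.5 CPM in cKO. Of 18 fibroblast and leptomeningeal markers 9 reached 20 counts in every deeper library and none was at 0 throughout. Their sum was 1125, 2419 and 3336 CPM among the controls and 6053, 769 and 3076 CPM among the cKO libraries. Col1a2 led this list with 896, 1371 and 1597 against 3243, 760 and 2176 CPM, followed by Col3a1 and Col1a1, all collagen genes. Among the controls the fibroblast sum was lowest in replicate 1 and highest in replicate 3, as was the contractile sum, whereas cKO replicate 1 had the highest fibroblast sum and a low contractile sum. Neuron markers had the opposite order in the controls, 7846, 6314 and 2408 CPM, and 8895, 2176 and 9246 CPM among the cKO libraries. Astrocyte markers summed to 1021, 1537 and 837 against 956, 684 and 738 CPM. Choroid plexus markers summed to 136 to 359 CPM in the controls and to 590, 48057 and 861 CPM among the cKO libraries, nearly all of it Ttr in cKO replicate 2. Of the 46 markers tested in these lists and among the oligodendrocyte precursor markers 0 passed by edgeR, with 3 at an unadjusted p under 0.05, where 2.83% of all genes tested were, 0 called by DESeq2 and 1 by limma-voom, which called 0.109% of all genes (Nefl, a neurofilament gene, with 363, 121 and 82.5 CPM in the controls, 951, 526 and 639 CPM in cKO, and a limma-voom adjusted p of 0.0417). The part of any of these cell types in the levels of the contractile genes was not tested.

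**Figure D5:**
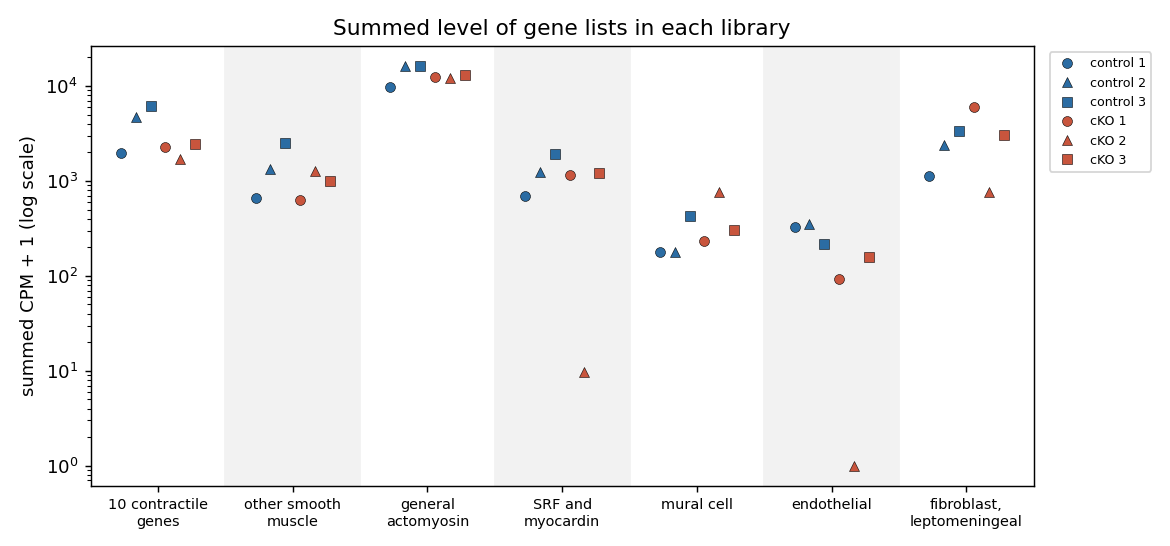
Summed CPM + 1 on a log scale (vertical axis) of the 10 contractile genes and of 6 other lists (horizontal axis), with 1 point per library, controls in blue and cKO libraries in red, and the point shape giving the replicate. The contractile sum reaches 6148 CPM in control replicate 3, where the mural cell list (markers of smooth muscle cells and pericytes) is at 427 CPM.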

How the data were processed

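Each of the 6 deposited tables gives raw counts of reads by gene for 1 library, prepared with a QuantSeq forward kit that tags the 3' end, per the labels. Per the file headers, featureCounts 2.0.0 summed exons by gene on Ensembl release 104 of GRCm39, without a strand or multi-mapping option. STAR, FastQC and DESeq2 are named in the submitters' processing notes without a role. Symbols were found for 52083 of 55416 identifiers.

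CPM were counts scaled to each library's total. Genes kept by filterByExpr were scaled by TMM and tested in edgeR 4.0.16 (R 4.3.3) with robust quasi-likelihood fits, cKO against control, two-sided, 3 samples each, with Benjamini-Hochberg adjustment over all genes tested. The script was tested on simulated data. Standard errors were the fold change over the root of F. As alternatives, the libraries were scaled by upper-quartile or RLE factors, tested with limma-voom (limma 3.58.1) or DESeq2 1.42.0, filtered at 5 CPM in 3 samples or not at all, blocked by replicate number, or left out in turn.

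The 10 genes, the other 11 lists and the rule for named genes (all 10, and of each other list the 3 most abundant in the deeper libraries, those past the threshold and defining markers at 0) were chosen with earlier results of these data known. Srf, Rgs5 and Aoc3 fall outside the rule or were singled out after their values were seen. The same holds for other list genes given as counts or named for where they were detected or highest. The detection level of 20 counts was set likewise.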

Additional observations from a re-analysis of the deposited data

How the results depend on the processing

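The count of 0 contractile genes called was the same under all 13 alternatives. The count over all genes was 2 (1 higher and 1 lower) and moved to 16 (14 and 2) with RLE scaling, 0 with upper-quartile scaling, 59 with DESeq2 (7 and 52), 14 with limma-voom and 23 without a filter, and to 1 to 7 when 1 library was left out; the causes were not tested. The median log2 fold change of all genes moved too, by 0.16 with RLE, 0.43 with upper-quartile scaling and 0.16 with DESeq2. It moved by -0.31 with limma-voom, which kept TMM scaling, by -0.08 without a filter and by -0.79 with the replicate block. With 1 library left out it moved by -0.46 (without cKO replicate 3) to 0.39 (without cKO replicate 2). With RLE scaling the estimate of Myl9 turned to 0.95 and that of Tpm2 to 0.18, with DESeq2 to 0.95 and 0.17, and with upper-quartile scaling to 4.47 and 3.57, with Acta2 at 2.30. Myl9 also turned to 0.47 without control replicate 3 and to 0.16 without cKO replicate 3, and ran from -1.31 to 0.47 when 1 library was left out. Cald1 turned to -0.15 with limma-voom, to -0.12 and -0.24 without control replicates 1 and 2 and to -1.30 without cKO replicate 1, and ran from -1.30 to 0.92 likewise. With the replicate number as a block, 1 gene of all was called, Cald1 was at -1.15 and 0 contractile genes were called. Samples with the same number share only that number: their deviations from the group means correlated at 0.08, 0.05 and 0.01 for replicates 1 to 3. The summed level of the 10 genes, cKO minus control, was -2139 CPM, -2161 CPM on TMM library sizes, and -3297 to -1207 CPM when 1 library was left out, the largest without control replicate 1 and the smallest without control replicate 3. Depth limits every statement on cKO replicate 2, where a count of 0 allows up to 5.28 CPM, and with 3 pools a group changes of single contractile genes could be missed.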
